A study of Mus musculus with 2 samples.

Results

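TRIM (tripartite motif) proteins are mostly ubiquitin ligases, and the siRNA inserts read at their genes were compared between library-infected neural stem cells and the cells that survived an alkylating agent. The genes were chosen by name. A probe set, which is a group of short probes on the array, was taken when its annotation held 1 gene symbol made of Trim, a number and at most 1 further letter. This gave 111 probe sets for 58 genes, of 18193 genes with a symbol of their own. Where a gene had several, the one with the highest log2 signal averaged over the arrays stood for the gene, and the others are given beside it. A further 5 probe sets carried a Trim symbol together with another symbol and named no gene.

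Both groups were cultures of ANSO4E, a mouse neural stem cell line taken from a transgenic animal (C57BL/6JxSJL/JF1 oocytes, BDF1 sperm), and both had been infected with the same genome-wide lentiviral siRNA library. The reference control received no MNNG, which is N-methyl-N′-nitro-N-nitrosoguanidine, a compound that methylates DNA. The survivors had been exposed to 500 µM MNNG for 15 min, regrown, and treated again. Inserts recovered by PCR were labeled with biotin and hybridized to 1 Affymetrix mouse expression array per condition, so no difference below has a replicate check, and none carries a p-value. A signal is read as the amount of insert that targets a gene, not as the gene's expression, and fewer cells carrying an insert cannot be told apart from less insert per cell. For this reason markers cannot check the cell type here, and inserts against 9 neural stem cell markers had log2 differences from -0.39 to 1.23 and those against 10 markers of other brain cells from -6.60 to 0.79.

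TRIM proteins carry a RING finger, 1 or more B-boxes and a coiled coil. The RING finger passes ubiquitin from a conjugating enzyme (E2) to a target, which is then degraded or altered in its function. The part that follows the coiled coil differs between members and sorts them into classes, such as PRY-SPRY proteins that bind targets of the immune response, COS-box proteins that bind microtubules, NHL-repeat proteins known in neurons and stem cells, and PHD-bromodomain proteins that act on chromatin. Trim39, the member that the study placed in its network of cell death genes, is known to stabilize Moap1, an activator of Bax, and to inhibit the anaphase-promoting complex (APC/C).

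On the deposited scale the TRIM family was at low signal on both arrays without large changes, as were most genes. Control log2 signals of the 58 genes ran from 0.14 to 2.08 (median 0.86), and those of the survivors from 0.29 to 2.07 (median 0.89). On the linear scale the highest were 4.22 and 4.21. Low signal was not particular to the family. Of all 18193 genes, only 2 of the control and 4 of the survivors were above 1000, the signal threshold that the study states. The deposited scale is not shown to be the one on which the study selected its genes, and the values below describe the deposited arrays only. Over all genes the medians were 0.85 and 0.90, and 201 genes of the control and 42 of the survivors were above a log2 signal of 5. No TRIM gene was above 5 on either array. Differences are survivors minus reference control on the log2 scale, so that 1 is a 2-fold change. On the scale as deposited, survivors had the higher value at 28 of the 58 genes (48.3%), the lower value at 21 (36.2%) and an equal one at 9 (15.5%), against 43.5%, 38.1% and 18.3% of all genes. The median difference was 0.00 in the family and 0.00 over all genes. Centering the arrays on their 18 hybridization controls instead lowered every difference by 2.77 and placed all 58 genes lower, so directions below are relative to the deposited scale.

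**Figure D1:**
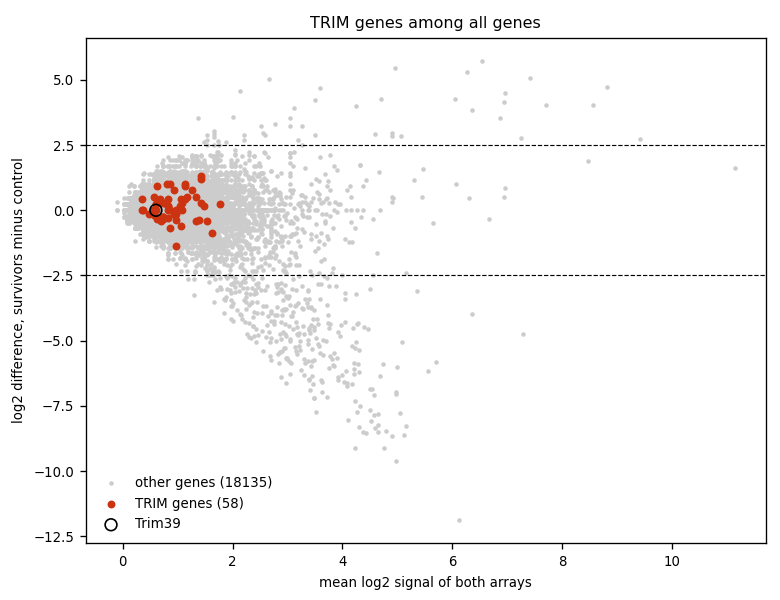
Mean log2 signal over both conditions (horizontal axis) and log2 difference, survivors minus control (vertical axis). Grey points are all other genes, red points the 58 TRIM genes and the open circle Trim39, and dashed lines mark differences of 2.5 and -2.5. The TRIM genes lie between -1.38 and 1.30, within the dense group of genes at low signal.

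On the deposited scale none of the 58 genes differed by more than 2.5 in either direction. This does not say which TRIM genes passed the log2 ratio threshold of the study. Over all genes 0.253% were higher and 1.72% lower by as much. A difference of more than 1 was found for 6 TRIM genes. Of these, 5 were higher in the survivors (8.62%, against 4.78% of all genes) and 1 was lower (1.72%, against 5.44% of all genes). The other 52 genes (89.7%) lay within 1 of equal values. For scale, the scaled median absolute deviation of the differences of all probe sets was 0.45, and 42 of the 58 genes lay within it (72.4%, against 62.9% of all genes).

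Trim39 read 0.60 on the control array and 0.60 on the survivor array, as log2 signals, so its difference was 0.00 at its only probe set. These are values of the deposited arrays and not those by which the study selected Trim39. On the linear scale this is a signal of 1.52. Among the 58 TRIM genes, 28 had a larger difference, 21 had a smaller one and 8 others were also at 0, so that Trim39 lay in the middle of its family. After median centering, quantile normalization or lowess its difference was between -0.06 and -0.05. The other 8 equal genes were Trim17, Trim23, Trim46, Trim54, Trim56, Trim60, Trim65 and Trim72. The level of Trim39 was also common on the arrays. Of 45037 probe sets, 972 had this log2 signal within 0.0001 on the control array, 1151 on the survivor array and 619 on both. Of all probe sets, 41.6% lay below it on the control array and 35.7% on the survivor array.

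At the probe set of highest mean, increases of more than 1 were found for Trim27, Trim71, Trim47, Trim8 and Trim80. At Trim27, Trim71 and Trim8 another probe set had the higher control signal, so the chosen one led through its survivor signal. With the probe set of highest control signal, a choice made after seeing the data, their differences were 0.00, -0.39 and -0.43. Trim27, a PRY-SPRY protein that represses transcription and controls endosomal trafficking, read 0.77 on the control array and 2.07 on the survivor array, a log2 difference of 1.30. Its 5 other probe sets had differences from -0.14 to 0.43. The increase rests on a probe set ending in _s_at, which can match several transcripts, and without such probe sets the difference of Trim27 was 0.00, while the median over its probe sets was 0.26. Trim71, the LIN41 homolog that binds RNA and keeps stem and progenitor cells from differentiating, read 0.81 and 2.03 (difference 1.21), where its other probe set gave -0.39.

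Trim8, which regulates cytokine signaling and stabilizes p53, had 0.30 and 1.32, a difference of 1.02, and its other probe sets had -0.43 and 0.18. Trim47, a PRY-SPRY ubiquitin ligase, had 0.62 and 1.64, and Trim80 had 0.36 and 1.37, with differences of 1.02 and 1.01 at the only probe set of each. None of the 3 genes with other probe sets was higher by more than 1 at a second one. After median centering, only Trim27 (1.25) and Trim71 (1.16) of these 5 remained past 1, and on the hybridization controls none did.

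The next increases were smaller. Trim7, which binds the glycogen primer glycogenin, had 0.16 and 1.08, a difference of 0.92, but its other probe sets had -0.23 and -0.43. Trim32, an NHL protein that is mutated in a limb-girdle muscular dystrophy and is known in neural progenitors, had 0.67 and 1.59, a difference of 0.91 at its only probe set. Trim34a, an interferon-induced PRY-SPRY protein, had 0.87 and 1.66 (0.78), with 0.29 at its other probe set. At Trim7 and Trim34a, too, the chosen probe set led through its survivor signal. With the probe set of highest control signal, a choice made after seeing the data, their differences were -0.43 and 0.29. Trim59, a membrane-anchored member, had 0.54 and 1.33 (0.78), with -0.14 at its other probe set. Among the genes with several probe sets in this group of 8 largest increases, only Trim34a kept its direction at all of them.

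A decrease of more than 1 was found for Trim44 alone. Trim44, which lacks a RING finger and carries a zinc finger of deubiquitinating enzymes, read 1.67 on the control array and 0.29 on the survivor array, a log2 difference of -1.38. Its other probe sets had 0.00 and 0.59, so the sign turned with the probe set. Trim31 had 2.08 and 1.19, a difference of -0.89 at its only probe set. Trim28, the corepressor KAP1 that silences retroelements through KRAB zinc finger proteins, had 1.21 and 0.52 (-0.68), while its other probe set was equal (0.00). At Trim44 and Trim28 another probe set had the higher survivor signal, so the chosen one led through its control signal. With the probe set of highest survivor signal, their differences were 0.59 and 0.00. Trim69 had 1.38 and 0.75 (-0.62) at its only probe set. Trim2, which targets neurofilament light chain in neurons, and Trim33, a chromatin regulator of TGF-β signaling, both had -0.43, as did Trim75. Other probe sets of Trim2 ran from -0.25 to 0.23, those of Trim33 were equal (0.00), and Trim75 had only 1.

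**Figure D2:**
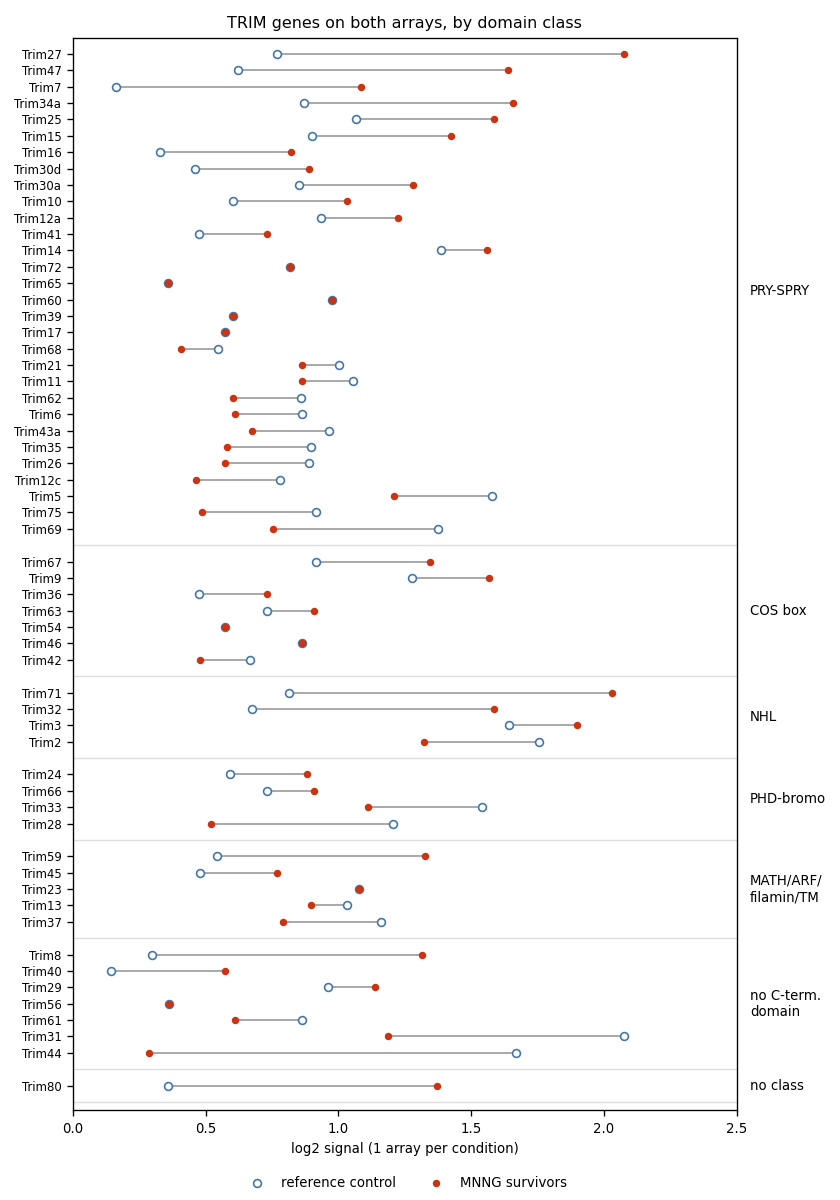
Log2 signal (horizontal axis) of the 58 TRIM genes on the reference control array (open blue circles) and the MNNG survivor array (red points), 1 array per condition, with a line joining the values of a gene. Genes are ordered by difference within each domain class; both directions occur in every class with more than 1 gene, and Trim39 and 8 others show equal values.

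The PRY-SPRY class, to which Trim39 belongs, was the largest with 30 genes. Higher values were found for 13 in the survivors, lower ones for 12 and equal ones for 5. The shares over all genes were 43.5% higher, 38.1% lower and 18.3% equal. The median difference of the class was 0.00, with a range from -0.62 to 1.30. Besides the genes above, Trim25, the ligase that activates the RNA sensor RIG-I, had 1.07 and 1.59, a difference of 0.52, with 0.18 and 0.00 at its other probe sets. Trim21, a cytosolic antibody receptor, had a difference of -0.14, and 0.00 at its other probe set. Trim17, a ligase that promotes neuronal apoptosis, was at 0.57 on both arrays, with 0.48 at its other probe set. Trim5, a relative of a retroviral restriction factor, had 1.58 and 1.21 (-0.37).

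The COS-box class was measured at 7 genes, of which 4 were higher, 1 was lower and 2 were equal, against 43.5%, 38.1% and 18.3% of all genes. Its median was 0.18, over a range from -0.19 to 0.43. Trim67 had 0.91 and 1.35, a difference of 0.43, and its close relative Trim9 had 1.28 and 1.57, a difference of 0.29. Both are neuronal proteins that act on axon guidance by netrin. The 4 probe sets of Trim9 ran from -0.25 to 0.33. Among the COS-box proteins of striated muscle, Trim63 (MuRF1), which drives muscle atrophy, had 0.73 and 0.91, and Trim54 (MuRF3) was at 0.57 on both arrays.

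The NHL class was the one with the highest median, 0.58 over 4 genes. Trim71, Trim32 and Trim3 were higher and Trim2 was lower. Trim3, a brain-enriched ligase, had 1.64 and 1.90, a difference of 0.25. In the PHD-bromodomain class, with a median of -0.13, Trim24 (0.29) and Trim66 (0.18) were higher and Trim28 and Trim33 were lower. Trim24, a ligase of p53, had differences from -0.43 to 0.29 over 3 probe sets. Of 5 genes with a MATH, ARF, filamin or transmembrane part, Trim59 and Trim45 were higher, Trim37 and Trim13 were lower and Trim23 was equal. Trim37, which acts at peroxisomes and centrosomes, had 1.16 and 0.79, a difference of -0.37, the probe sets running from -0.43 to 0.18. Of 7 genes with no such domain, 3 were higher and 3 lower, from -1.38 for Trim44 to 1.02 for Trim8. These classes are small, and their medians describe 2 arrays only. Beside their counts, 43.5% of all genes were higher, 38.1% lower and 18.3% equal.

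Over all genes, 43.5% were higher, 38.1% lower and 18.3% equal, with a median of 0.00. Grouped by role, 6 of 10 genes known in apoptosis or the control of p53 were higher, 2 were lower and 2 were equal (Trim39 and Trim17), with a median of 0.29. Among the 6, Trim24, Trim27, Trim8 and Trim59 each had another probe set that was lower, and Trim32 and Trim45 had 1 probe set each. Neither of the 2 lower genes had a probe set that was higher. Of 14 genes known in interferon or antiviral responses, 8 were higher and 5 lower (median 0.23). Among these higher genes, Trim8, Trim12a, Trim14, Trim27 and Trim30d each had another probe set that was lower. Among the lower genes, Trim12c had another that was higher. Of 8 genes known in neurons or neural progenitors, 6 were higher and 1 lower (median 0.27). Here the higher genes Trim9 and Trim71 each had a lower probe set, and the lower gene Trim2 had a higher one. Of 3 muscle genes, 1 was higher and 2 were equal. Trim27 and Trim8 stand in the first and the second of these lists, and Trim32 stands in the apoptosis and p53 list and in the neuronal list. The lists are therefore not independent.

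TRIM genes that neighbor each other on a chromosome, with at most 20 protein-coding genes between them, formed 3 groups with at least 3 measured genes. Differences of both signs were found in 2 of these 3 groups. Trim39 lies beside Trim10, Trim15, Trim26, Trim31 and Trim40 near the class I histocompatibility genes. Of these 6, 3 were higher, 2 were lower and Trim39 was equal, from -0.89 for Trim31 to 0.52 for Trim15. The cluster of Trim5, Trim6, Trim12, Trim30 and Trim34 genes, which resemble retroviral restriction factors, was measured at 7 genes, of which 4 were higher and 3 lower, from -0.37 to 0.78. These paralogs are alike in sequence, and probe sets annotated to both Trim34a and Trim34b or to both Trim30a and Trim30d had differences of 0.00, 0.78 and 0.29, so their inserts may not be read apart. Of Trim60, Trim61 and Trim75, 2 were lower and 1 was equal. The shares over all genes were 43.5% higher, 38.1% lower and 18.3% equal.

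Probe sets of the same TRIM gene often went in opposite directions. Several probe sets were present for 31 genes (84 probe sets), and 27 genes had 1. Of the 31, 16 had differences of both signs (51.6%), against 47.7% of the 9010 genes with several probe sets, and 6 had all their probe sets on the same side of 0 (19.4%, against 21.9%). With exactly 2 probe sets, the share with both signs was 33.3% of 18 TRIM genes and 30.5% of all such genes. The span between the lowest and the highest difference of a gene had a median of 0.59 in the family and 0.68 over all genes. No TRIM gene was past 1 in the same direction at 2 probe sets.

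The genes that kept 1 direction at every probe set were Trim16, Trim26, Trim30a, Trim34a, Trim36 and Trim41. Trim26 had -0.32 at both of its probe sets, and Trim41 had 0.25 at both. Trim30a, an interferon-induced protein, had 0.43 and 0.48. In Trim30d the probe sets tied in mean signal, with differences of 0.43 and -0.39. Outside the probe sets of highest mean, 2 more were past 1. A probe set of Trim62 read 0.03 and 1.21 (1.18, beside -0.25 and 0.00), and a probe set of Trim23 read 1.26 and 0.14 (-1.12, beside -0.19 and 0.00).

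**Figure D3:**
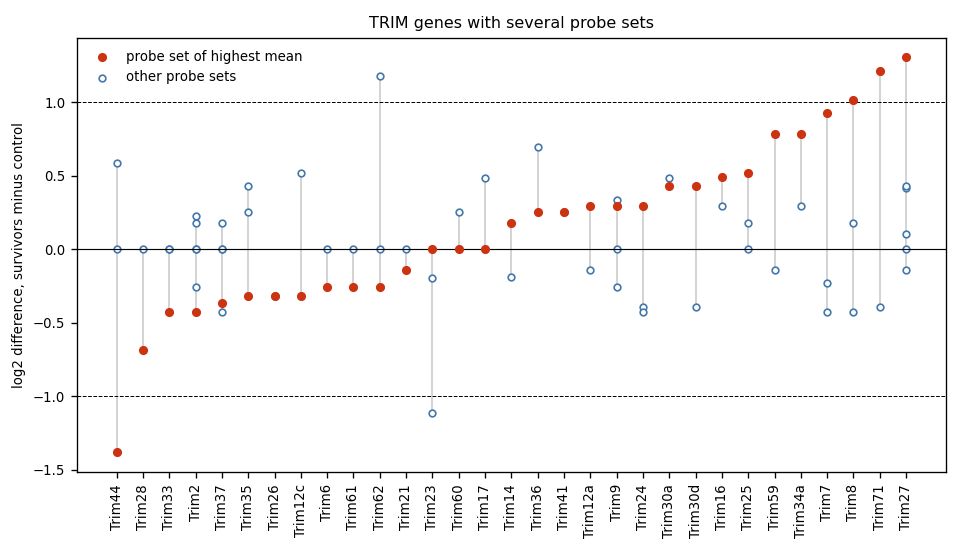
Log2 difference between survivors and reference control (vertical axis) at every probe set of the 31 TRIM genes with several (horizontal axis, ordered by the probe set of highest mean). Red points are the probe sets of highest mean, open blue circles the others, grey lines the span of a gene, and dashed lines mark 1 and -1. Trim44, Trim8, Trim71 and Trim27 pass a dashed line at the probe set of highest mean. Trim62 and Trim23 pass one at 1 other probe set each. The remaining probe sets lie inside.

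Differences took few values. The 45037 probe sets held 894 distinct differences to 4 decimals, and the 58 TRIM genes held 27. Of the 58, 43 shared their difference with another TRIM gene, and 37 (63.8%) had one of the 10 commonest differences on the arrays, which covered 53.8% of all probe sets. The commonest was 0, at 8737 probe sets (19.4%). A difference of 0.4303 was found at 5 TRIM genes (Trim10, Trim30a, Trim30d, Trim40 and Trim67) and at 1994 probe sets, and the increases of Trim8 and Trim47 were both 1.0163, as at 140 probe sets. The smallest difference other than 0 among the TRIM genes was 0.14. How the repeated values arose was not tested. The increase of Trim27 (1.3043) was shared by 176 probe sets and the decrease of Trim44 (-1.3826) by 34.

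**Figure D4:**
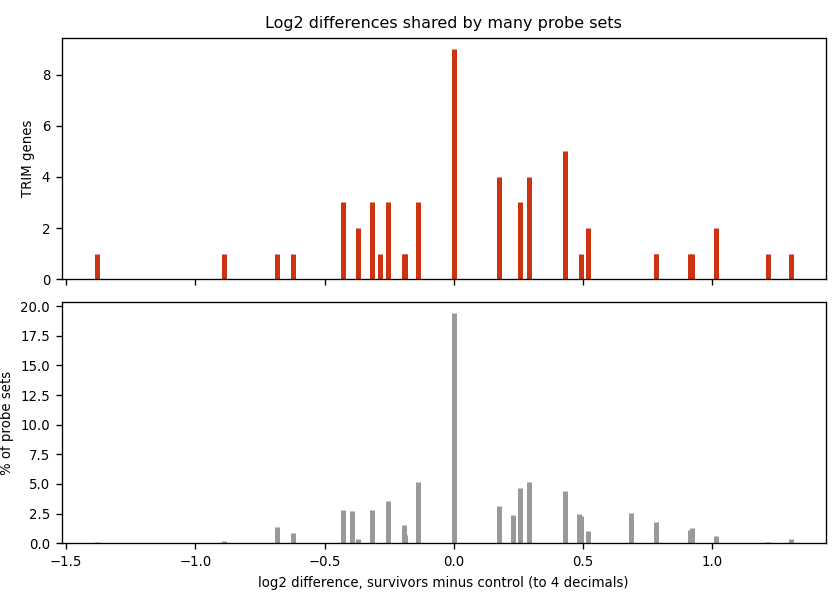
Number of TRIM genes (upper panel) and percent of all probe sets (lower panel) at each log2 difference, survivors minus control, to 4 decimals (horizontal axis). Lines stand at the differences held by a TRIM gene or by at least 1000 probe sets; the tallest in both panels is at 0, with 9 TRIM genes and 19.4% of probe sets.

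Genes of the enzymes that activate and conjugate ubiquitin and its relatives were read in the same way. Of 9 E1 genes listed, 6 were measured. Of these, 2 were higher and 4 lower (median -0.70), against 43.5% and 38.1% of all genes. Each of the 4 lower genes also had a probe set that was higher in the survivors, while neither of the 2 higher genes had a lower one. Among them Uba6 activates ubiquitin, with a difference of -0.71 and probe sets up to 0.78. The others act on ubiquitin-like proteins. Sae1, a subunit of the SUMO-activating enzyme, had 1.84 and 0.74, a difference of -1.10, and its 4 probe sets ran up to 0.25. Nae1, of the NEDD8-activating enzyme, had 0.12 and 1.13, a difference of 1.01 at its only probe set. Of 31 E2 (ubiquitin-conjugating) genes, 15 were higher, 9 lower and 7 equal, with a median of 0.00. Ube2h had 2.14 and 0.70, a difference of -1.44 with probe sets up to 0.78, and Ube2q1 had 0.72 and 1.65, with 0.00 at its other probe set. Among E2 enzymes that work with many TRIM proteins, Ube2d1 was at 2.12 on both arrays and Ube2n had 1.72 and 1.08.

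Of 7 genes listed for proteins tied to Trim39, 4 were measured, and Moap1 was not among these 4. Of them, 3 were higher and 1 was equal (median 0.31), against 43.5% and 18.3% of all genes. Nfatc3, a transcription factor that promotes neuronal apoptosis, had 0.94 and 1.54 (difference 0.60, against -0.39 at its second probe set), and Cactin had 0.19 and 0.52. Fzr1 (Cdh1), an activator of APC/C, had 0.83 and 1.12, and the cell cycle inhibitor Cdkn1a was at 0.93 on both arrays. Of 16 subunits and activators of APC/C, 7 were higher and 9 lower (median -0.16), and 4 were lower by more than 1 (against 5.44% of all genes, and 38.1% lower at any size). Anapc15 had 3.14 and 0.61, a difference of -2.53, and Anapc11, its RING subunit, had a difference of -1.67, down to 1.33 in the survivors. The differences over all probe sets ran up to 1.41 for Anapc15 and 0.78 for Anapc11. The others past 1 were Anapc2 (-1.44 at its only probe set) and Anapc1 (-1.0015, with probe sets up to 0.43). Anapc1, Anapc11 and Anapc15 thus each also had a probe set that was higher in the survivors.

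Of 11 genes of the Trim28 corepressor complex, 6 were higher, 2 lower and 3 equal, with a median of 0.18, and none was past 1. Cbx3, a heterochromatin protein, had 0.69 and 1.47, and Smarcad1 had 0.62 and 1.31. Of 11 genes that sense cytosolic nucleic acids or signal from them, where Trim25 and other members act, 4 were higher, 4 lower and 3 equal, with a median of 0.00. Tbk1, the kinase that activates interferon regulatory factors, read 3.70 on the control array and 0.26 on the survivor array (difference -3.44), and -0.92 was the difference at its other probe set. Its relative Ikbke had 0.48 and 1.39, a difference of 0.91. Of 10 TRIM proteins and close relatives under other names, 8 were higher and 2 lower, against 43.5% and 38.1% of all genes. Their median was 0.36, from -0.32 for Cmya5 to 0.92 for Rnf135. Among the 8, Mid1, Pml and Rnf207 each had another probe set that was lower. Of the 2 lower genes, Mid2 had another probe set that was higher. Mefv (pyrin), an inflammasome sensor, had 0.66 and 1.18.

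**Figure D5:**
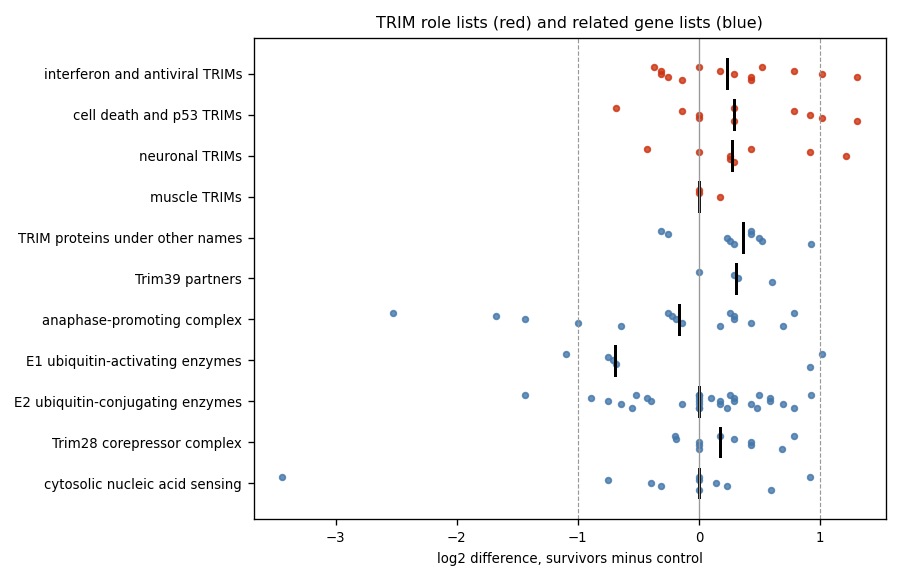
Log2 difference between survivors and reference control (horizontal axis) of each gene in the role lists of TRIM genes (red) and in the related gene lists (blue), with black bars at the medians and dashed lines at 1 and -1. Points are spread vertically within a list for display only; the red points lie between -0.68 and 1.30, while Anapc15 and Tbk1 reach -2.53 and -3.44.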

How the data were processed

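Inserts of a lentiviral siRNA library were read on 2 Affymetrix mouse arrays, 1 per condition, and conditions were taken from the sample labels. The authors deposited a log2 signal for each probe set and array. RMA is named in the submitters' processing notes, without a version. The paper also names quantile normalization, but the arrays were not equal in distribution as deposited, with 99th percentiles of 4.11 and 2.68. The labels name genomic DNA as the template and the paper total RNA. Without the 64 Affymetrix controls there were 45037 probe sets. Of these, 34945 had 1 symbol in the array annotation, and 34741 were updated through the gene ID (GRCm38.p6, for names and neighbors only, since no build is named for the array). No coordinates and no insert sequences are given.

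Computed here were differences, counts and medians. Because a condition has 1 array, no test was made, and precision is limited by the number of arrays. The family and the gene lists were chosen with earlier results of these data known. Ties in mean signal were judged to 5 decimals and resolved by probe set name, and a difference within 1e-06 was counted as equal. Genes named in the text were Trim39, the 8 largest increases and decreases, the 5 of highest signal on each array, and the 2 members of each list that differed most. Others were named after their values were seen. Alternatives were median centering, quantile normalization, lowess (fraction 0.3), centering on 18 hybridization controls, values raised to the 25th percentile of each array, leaving out probe sets ending in _x_at or _s_at, other choices of probe set, symbols not updated, and other thresholds. The steps were checked on simulated data. Python 3.11.15, numpy 2.4.6, pandas 2.3.3, statsmodels 0.14.6 and matplotlib 3.10.9 were used.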

Additional observations from a re-analysis of the deposited data

How the results depend on the processing

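With 1 array per condition no replicate could be left out. No paired analysis was possible because each condition has 1 array. The 18 hybridization controls were all higher on the survivor array, and centering on them lowered every difference by 2.77, the medians of the family and of all genes and the value of Trim39 included (-2.77 each). All 58 genes were then lower and 0 higher, 58 by more than 1 and 37 by more than 2.5, with 0 higher by more than 1 and 0 equal. It also turned Trim27 (-1.46), Trim47 (-1.75), Trim71 (-1.55), Trim8 (-1.75) and Trim80 (-1.75), while the order of the genes did not depend on it. Median centering, quantile normalization and lowess left 0 genes equal, with 2, 3 and 2 higher by more than 1 instead of 5, and the floor left 3. The probe set of lowest mean gave 15 equal and 2 higher by more than 1, and turned Trim27 (-0.14), Trim44 (0.59), Trim71 (-0.39) and Trim8 (-0.43), and among smaller differences Trim7 (-0.23), Trim59 (-0.14) and Trim37 (0.18). Leaving out probe sets ending in _x_at or _s_at gave 0.00 for Trim27. The probe set of highest MNNG value gave a family median of 0.22 (0.18 over all genes), 0 lower by more than 1 and 0.59 for Trim44. The median over probe sets gave 2 higher and 0 lower by more than 1. The probe set of highest reference control value, chosen after seeing the data, gave 2 higher and 2 lower by more than 1. It gave 0.00 for Trim27, -0.39 for Trim71 and -0.43 for Trim8. At thresholds of 0.5 and 2, 11 and 0 genes were higher and 4 and 0 lower. The number of TRIM genes above Trim39 ran from 22 to 33 over the alternatives. The cause of these changes was not tested. Depth has no counterpart on these arrays, and all members lay at low signal.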

Other observations

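Among probe sets with a Trim symbol and another one, which named no gene, the probe set annotated to H2aw and Trim17 read 1.45 on the control array and 0.28 on the survivor array as log2 signals (difference -1.18). A probe set annotated to Trim34a and Trim34b had 1.75 and 2.53, above the highest value of any TRIM gene with its own symbol on the survivor array. Over the 58 TRIM genes, the Pearson correlation between the log2 signals of the arrays was 0.22 and the Spearman correlation 0.22. These are across genes that share both arrays, and genes are not independent replicates.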
